A study of Mus musculus with 3 samples.

Results

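Keratin genes are described here across the keratinocytes of mouse ear skin. Members were all genes whose symbol is Krt followed by digits only, which gave 49 of the 31053 genes counted, 26 of type I and 23 of type II. In GENCODE M21 (GRCm38), 25 of them lie between positions 99232761 and 100269871 of chromosome 11 and 24 between positions 101347444 and 102032027 of chromosome 15. The rule leaves out Krt6a, Krt6b, Krt33a and Krt33b, whose symbols end in a letter.

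Keratins are the intermediate filament proteins of epithelial cells. A filament is built from pairs of 1 type I and 1 type II chain, and it is anchored to desmosomes between cells and to hemidesmosomes at the basement membrane. In epidermis the basal layer is known for Krt5 with Krt14, and cells that leave that layer are known for Krt1 with Krt10, while hair follicles, ducts and stressed skin use other members.

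The data are 3 single-cell RNA libraries, 1 for each condition and each from a pool of mice, so differences between conditions have no replicate and no test was possible. Young WT were C57BL/6J mice of 4 weeks (5 males, 3 females), adult WT were C57BL/6J mice of 8 weeks (6 males, 4 females), and adult Lang-DTA were Langerin-DTA mice of 8 weeks (4 males, 6 females). Langerin-DTA mice, hemizygous for a transgene that expresses diphtheria toxin A from langerin (CD207) control sequences, lose Langerhans cells, and the labels describe the WT mice set against them as littermates. None was treated, and in each condition lymphatic endothelial, blood endothelial, CD45+ and CD45-CD31- cells were sorted from ear skin and mixed in equal parts. Mice of 1 sex in a pool cannot be told apart, and the age and genotype contrasts share the adult WT library. Among leukocytes, 614 cells in young WT, 422 in adult WT and 10 in adult Lang-DTA carried at least 2 molecules of Cd207, the gene of langerin. Where 3 values stand in a row below, they run from young WT through adult WT to adult Lang-DTA.

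Levels are CPM: counts of unique molecular identifiers (UMIs, tagged molecules) of a gene per 1000000 UMIs of the gated cells of a library. Reads came from the 3′ end of transcripts, so a UMI stands for about 1 molecule whatever the gene's length, and levels were compared between genes without a length correction. Keratinocytes were gated on raw UMIs: at least 2 of Col17a1, a hemidesmosome collagen of basal cells; at least 5 of Krtdap, a secreted protein of differentiating cells; at least 3 of Defb6 plus Cst6; or at least 4 of the proliferation genes Mki67 plus Top2a with at least 1 of Col17a1. The Col17a1 gate held 1431, 2729 and 2992 cells, the Krtdap gate 509, 1007 and 958, the Defb6/Cst6 gate 118, 264 and 275, and the cycling gate 173, 262 and 211. Median depth in these gates was 11287 to 21471 UMIs per cell. Intervals are exact and cover counting error only.

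A cell counted in every gate it met, and the gates overlap strongly. Of Krtdap-gate cells 88.3% to 95.1% also met the Col17a1 gate, and of cycling-gate cells 95.8% to 98.3%. Of Defb6/Cst6-gate cells 75.4%, 72.3% and 70.2% also met the Krtdap gate, and 63.6%, 69.7% and 54.9% the Col17a1 gate. Only 18, 18 and 42 of them met no other keratinocyte gate. Genes not used by the rule were high in the Col17a1 gate (Itga6, Itgb4, Trp63, Col7a1, Lamb3 and Dst summed to 3456 to 4278 CPM, each at 30 CPM or more) and in the cycling gate (Birc5, Cdk1, Cenpf, Ube2c, Ccnb1 and Tyms summed to 1917 to 2126 CPM). The Defb6/Cst6 gate, proposed as upper follicle, was mixed. Upper follicle markers (Lrig1, Plet1, Gata6, Alox12e, Klk10, Defb1) summed there to 914.3, 1114 and 929.4 CPM, against 318 to 364.5 in the Krtdap gate. Suprabasal markers (Sbsn, Dmkn, Dsg1a, Dsc1, Lypd3, Calm4) were also higher there than in the Krtdap gate itself, at 7364, 7525 and 9860 CPM against 4017, 4303 and 5820, so the gate is called by its genes below. Markers of other cells also differed there between libraries: fibroblast genes (Col1a1, Col1a2, Dcn, Pdgfra, Lum, Col3a1) summed to 687.4, 100.0 and 240.3 CPM and lymphatic endothelial genes (Prox1, Lyve1, Flt4, Ccl21a, Reln, Mmrn1) to 66.6, 1.69 and 102.8 CPM. Their part in the keratin values of this gate was not tested.

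Promoter sequences of RefSeq (GRCm38.p6) were at hand for 35 of the 49 keratins. The 150 bases just before the start site are shown for a basal keratin (Krt5, chr15:101712906-101713055), for 2 keratins of differentiating cells (Krt10, chr11:99389365-99389514, and Krt2, chr15:101818170-101818319) and for 3 whose levels differed between gates or libraries (Krt24, chr11:99285263-99285412; Krt78, chr15:101954288-101954437; Krt79, chr15:101940325-101940474), all on the minus strand, 5′ to 3′, with any match to TATAA or ATAAAA, on either strand, in capitals.
Krt5: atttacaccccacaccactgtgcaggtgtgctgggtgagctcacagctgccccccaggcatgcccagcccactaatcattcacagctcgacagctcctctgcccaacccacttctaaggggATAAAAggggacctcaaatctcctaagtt
Krt10: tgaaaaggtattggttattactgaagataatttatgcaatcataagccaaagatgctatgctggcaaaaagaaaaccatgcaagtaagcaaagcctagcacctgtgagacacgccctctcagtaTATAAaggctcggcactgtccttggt
Krt2: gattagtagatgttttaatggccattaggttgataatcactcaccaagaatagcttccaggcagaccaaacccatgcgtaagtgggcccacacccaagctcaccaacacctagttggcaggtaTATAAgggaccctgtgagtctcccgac
Krt24: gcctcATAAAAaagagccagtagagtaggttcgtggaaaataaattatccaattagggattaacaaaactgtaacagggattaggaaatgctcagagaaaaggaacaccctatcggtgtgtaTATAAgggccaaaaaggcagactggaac
Krt78: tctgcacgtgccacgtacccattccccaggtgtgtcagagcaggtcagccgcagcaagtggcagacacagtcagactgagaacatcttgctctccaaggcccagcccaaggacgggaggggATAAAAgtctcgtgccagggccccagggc
Krt79: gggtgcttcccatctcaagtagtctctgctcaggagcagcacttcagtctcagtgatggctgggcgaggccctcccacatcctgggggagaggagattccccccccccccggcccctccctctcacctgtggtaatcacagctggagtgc
TATAA was found in 21 of the 35 keratin promoters, against 14.2% of all 32851 promoters of this length, and ATAAAA in 17 of the 35, against 10.1% (a run of TATAAAA counts for both). In Krt10, Krt2 and Krt24 a TATAA match began 26, 27 and 28 bases before the start, and in Krt5 and Krt78 an ATAAAA match began 29 bases before it. The Krt79 window held neither. GCCNNNGGC, a letter pattern bound by AP-2 factors, was in 5 of the 35 keratin windows, against 9.61% of all promoters, and in none of the 6 printed. These are letter matches, and the letters were chosen with the sequences in view.

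Keratins took 1.61% to 3.20% of UMIs over the gates and libraries, and a few members made up most of these. Summed over the 49 members, keratins were 2.39%, 1.99% and 2.15% of UMIs in the Col17a1 gate. In the Krtdap gate they were 3.02%, 2.39% and 2.71%, in the Defb6/Cst6 gate 3.20%, 2.40% and 2.76%, and in the cycling gate 1.96%, 1.61% and 1.71%. In every gate adult WT was lowest and young WT highest. Krt1, Krt2, Krt5, Krt10, Krt14 and Krt15 led the Col17a1 gate, where the 6 most abundant members held 98.4% to 98.7% of keratin UMIs. Type I UMIs outnumbered type II by 1.78 to 2.19 times over the 12 gated sets, with the lowest ratios in the Defb6/Cst6 gate (1.78, 1.81 and 1.83).

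The free RNA background, taken from lymphatic endothelial cells (at least 2 UMIs of Prox1) and leukocytes (at least 1 of Ptprc), was low. Krt80 and Krt83 differed between kinds of Ptprc cells, as given at the end. Whether their level there is free RNA was not tested. All keratins together came to 34.3, 57.5 and 37.0 CPM in Prox1 cells and to 50.5, 65.9 and 58.5 CPM in Ptprc cells. Of the 49 members, 17 reached 30 CPM in at least 1 keratinocyte gate and library, 7 peaked between 1 and 30 CPM, 23 stayed under 1 CPM and 2 (Krt34 and Krt81, hair shaft keratins) had no UMI in these cells. At least 30 CPM together with 5 times the higher background was held in all 3 libraries by 11 members in at least 1 gate. Of these, 8 held it in every gate: Krt1, Krt2, Krt5, Krt10, Krt14, Krt15, Krt17 and Krt80.

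**Figure D1:**
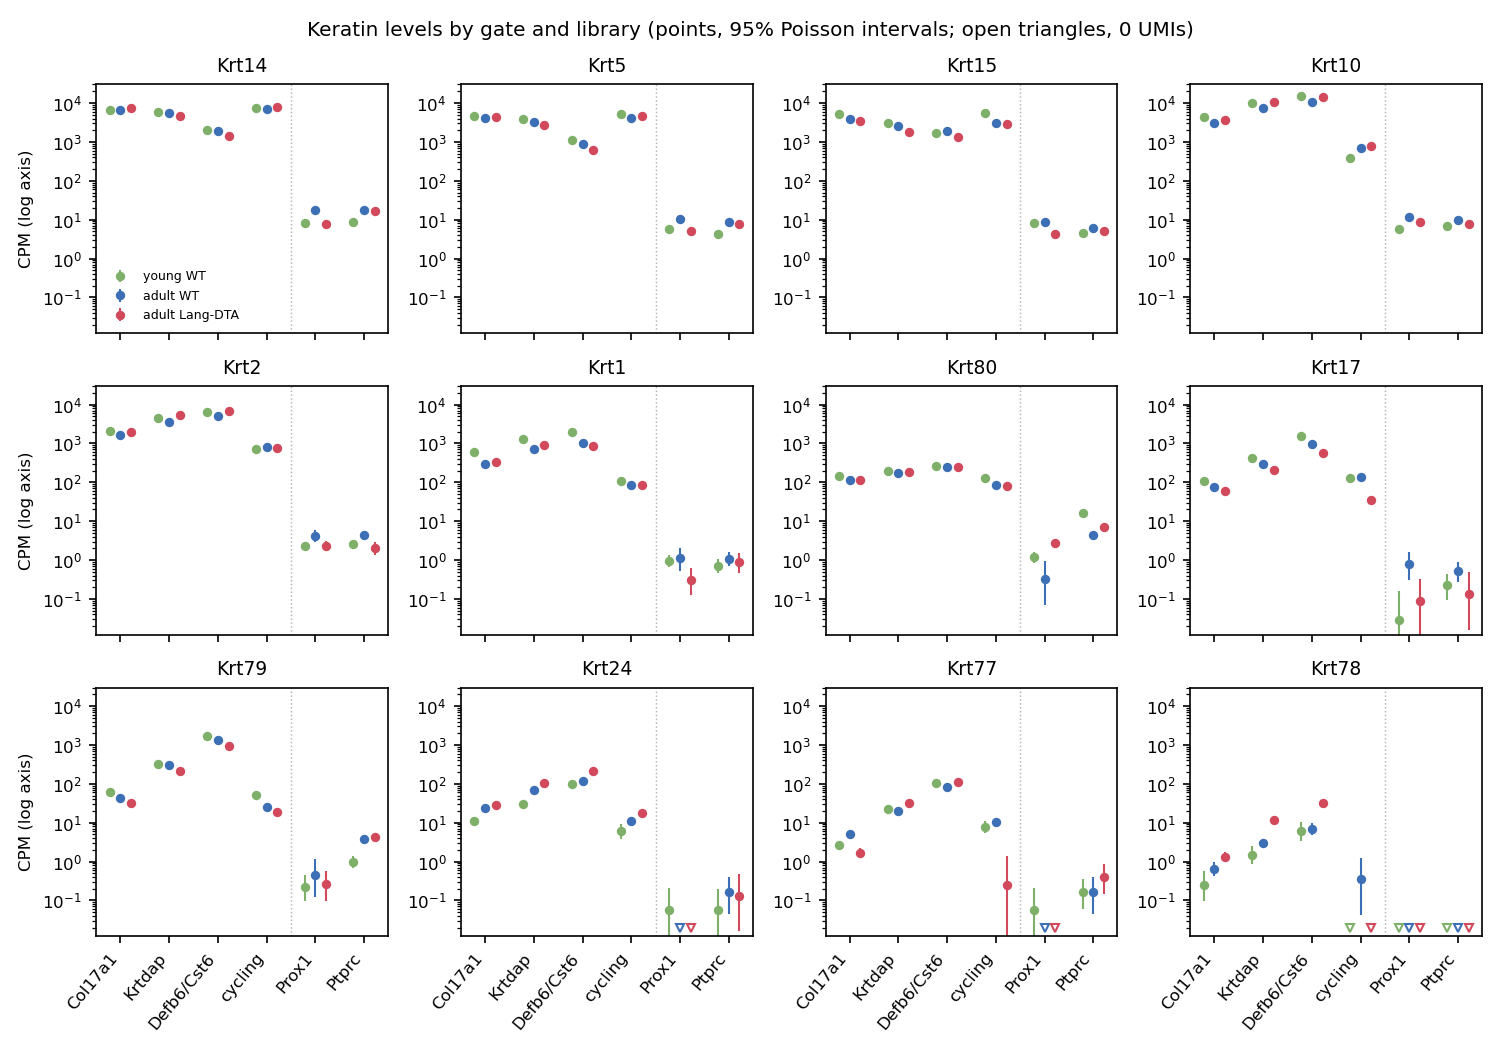
Level of 12 keratins (CPM, log axis) in 4 keratinocyte gates and in the Prox1 and Ptprc background cells (right of the dotted line), by library, with 95% Poisson intervals and open triangles for 0 UMIs. Krt14 and Krt5 were lowest in the Defb6/Cst6 gate among keratinocytes, while Krt79 and Krt17 peaked there.

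The basal keratins Krt14 and Krt5, which pair with each other, were highest in cycling and Col17a1-gate cells. Krt14 stood at 6663, 6692 and 7279 CPM in the Col17a1 gate and at 7378, 7134 and 7722 CPM in the cycling gate. In the Defb6/Cst6 gate it was at 2070, 1886 and 1461 CPM. Krt5 was also lowest in the Defb6/Cst6 gate, with 4778, 4141 and 4404 CPM in the Col17a1 gate and 1145, 859 and 628 CPM in the Defb6/Cst6 gate. Thus the Col17a1 gate exceeded the Defb6/Cst6 gate 3.22 to 4.98 times for Krt14 and 4.17 to 7.01 times for Krt5. Per cell, after thinning each to 3000 UMIs, Pearson's r between log2(UMIs + 1) of Krt5 and Krt14 in the Col17a1 gate was 0.79 over 1401 young WT cells, 0.79 over 2680 adult WT cells and 0.81 over 2905 adult Lang-DTA cells (Spearman's rho 0.75, 0.70 and 0.71). Cells of a library share its pool and preparation, so these are descriptions. Krt15, a type I keratin of basal cells and of the follicle bulge, was at 5097, 3817 and 3526 CPM in the Col17a1 gate, and its r with Krt14 was lower, at 0.46, 0.32 and 0.33 (rho 0.17, 0.05 and 0.04).

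The keratins of differentiating layers, Krt10, Krt2 and Krt1, had the reverse order. Krt10 was at 4255, 3027 and 3727 CPM in the Col17a1 gate, 10221, 7417 and 10915 CPM in the Krtdap gate and 14983, 10356 and 14049 CPM in the Defb6/Cst6 gate, where it was the most abundant keratin. Krt2, a type II keratin of differentiating epidermis, prominent in mouse ear, was at 2146, 1645 and 1917 CPM, then 4557, 3580 and 5258 CPM, then 6356, 4942 and 6954 CPM along the same gates. Krt1, the other type II partner, is given with the age contrast below. Cycling cells held the least, with Krt10 at 388, 684 and 782 CPM. In the Krtdap gate Pearson's r with Krt10 was 0.78, 0.75 and 0.81 for Krt2 (rho 0.77, 0.71 and 0.81). For Krt1 it was lower, at 0.44, 0.42 and 0.34 (rho 0.38, 0.38 and 0.27), over the same 505, 995 and 938 cells. These are thinned counts, and Krt1 was below Krt2 in that gate (1320, 723 and 899 CPM against 4557, 3580 and 5258). Fewer UMIs alone can lower r, and how far they did was not tested. Between Krt1 and Krt2, both type II, r was 0.12, 0.05 and 0.03 there (rho 0.17, 0.12 and 0.04). Of Krtdap-gate cells, after thinning, 382 in young WT, 711 in adult WT and 723 in adult Lang-DTA carried Krt10. Krt1 was in 238, 320 and 350 cells, of which 207, 290 and 323 also carried Krt10. Krt2 was in 347, 641 and 649 cells, of which 312, 552 and 591 also carried Krt10.

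Single cells of the Defb6/Cst6 gate mostly held 1 set or the other, while the Krtdap gate held more mixed cells. In each cell with at least 10 thinned UMIs of Krt1, Krt2, Krt5, Krt10, Krt14 and Krt15, the share of Krt1, Krt2 and Krt10 was taken. In the Defb6/Cst6 gate that share was under 10% in 41.6% (95% interval 31.9% to 51.8%), 48.7% (42.1% to 55.4%) and 44.2% (37.8% to 50.7%) of cells, and at 90% or more in 42.6% (32.8% to 52.8%), 36.1% (29.9% to 42.7%) and 43.8% (37.4% to 50.3%). Few cells lay between these ends. In the Krtdap gate the cells at 90% or more were 23.6%, 25.2% and 36.5%, and those under 10% were 41.3%, 45.7% and 35.5%. Between these ends, 21.2%, 19.9% and 17.1% lay at 10% to under 50%. A further 13.8%, 9.24% and 10.9% lay at 50% to under 90%. With 1 library per condition these shares are values of the libraries only. In the cycling gate 82.5% to 85.8% of cells were under 10%, and 0, 4 and 3 cells were at 90% or more.

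**Figure D2:**
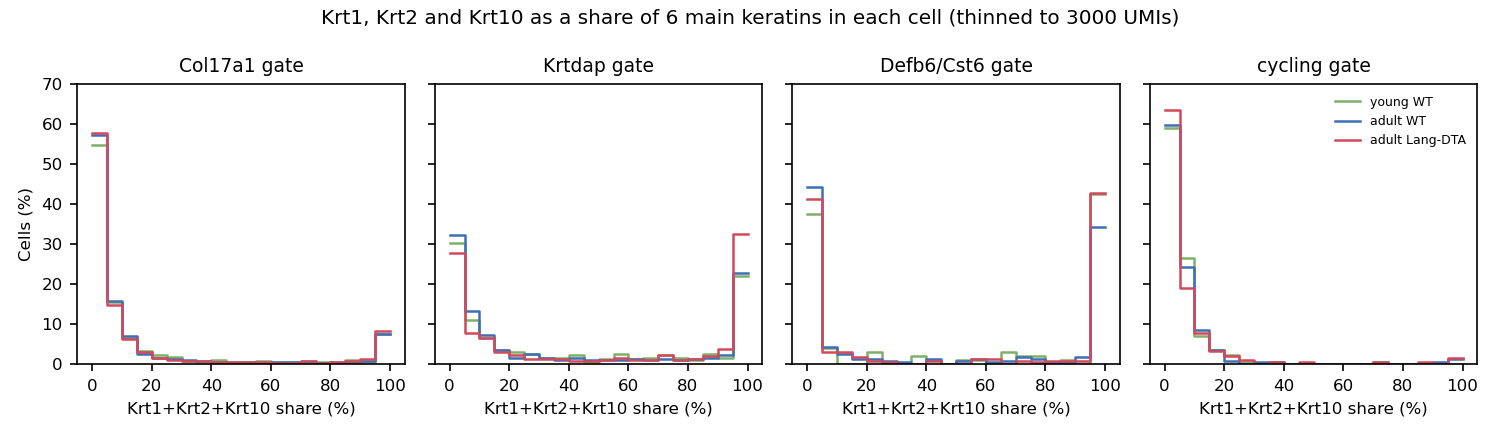
Share of Krt1, Krt2 and Krt10 in the sum of these and Krt5, Krt14 and Krt15 (percent, bins of 5) per cell thinned to 3000 UMIs, as percent of the cells with at least 10 such UMIs, by gate and library. The Krtdap and Defb6/Cst6 gates have cells at both ends, and cycling cells lie almost wholly at the low end.

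Sorting Col17a1-gate cells by their Krtdap UMIs showed an exchange of these keratins, most of it in cells with 20 or more. Krt10 was at 329, 303 and 491 CPM in cells with 0 Krtdap UMIs and at 1868, 1035 and 1204 CPM with 5 to 19. In cells with 20 or more it was at 15735, 9886 and 13186 CPM. Krt15 was at 6219, 4634 and 4405 CPM with 0, 5275, 4409 and 3836 CPM with 5 to 19, and 1782, 1787 and 1208 CPM with 20 or more. Krt14 was not highest at the start, since cells with 5 to 19 Krtdap UMIs held 9107, 8041 and 8684 CPM against 6680, 6981 and 8333 CPM in cells with 0. In cells with 20 or more it was lower, at 4044, 4672 and 3636 CPM. The Krtdap count depends on the depth of a cell as well as on its state, and the share of each in these differences was not tested.

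**Figure D3:**
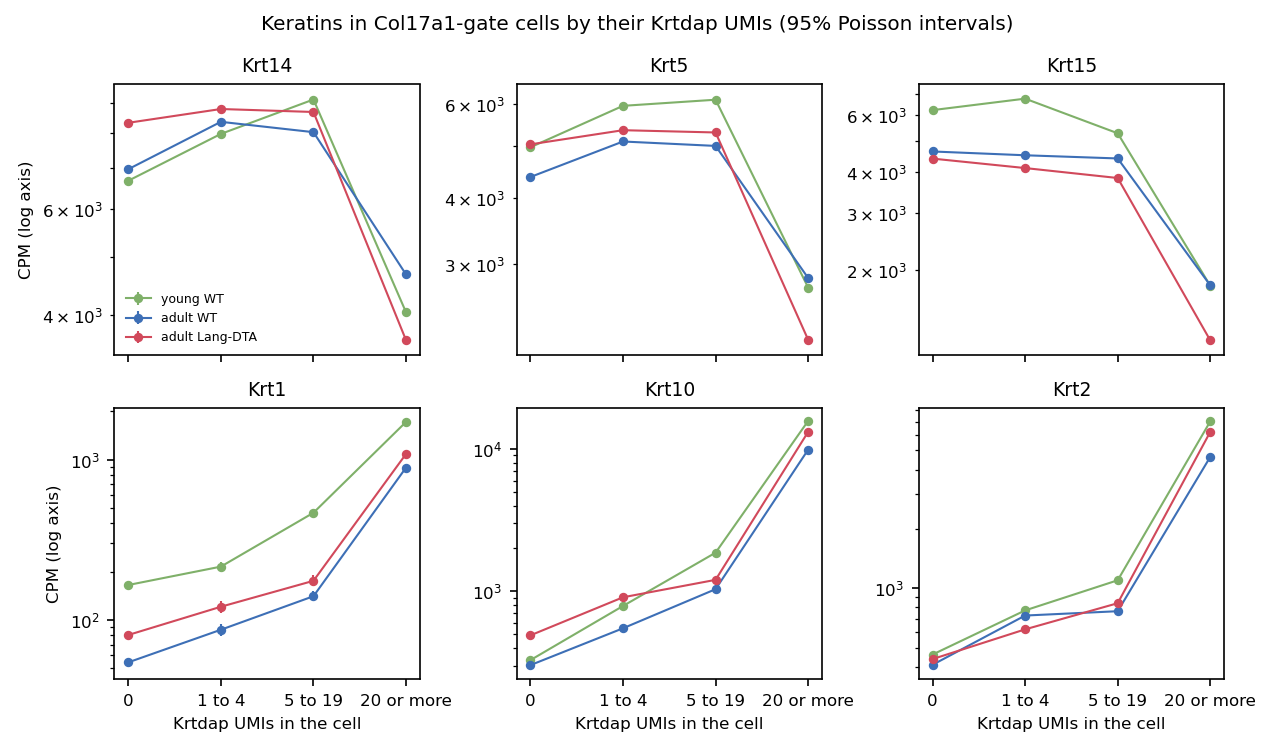
Level of 6 keratins (CPM, log axis) in Col17a1-gate cells grouped by Krtdap UMIs, by library, with 95% Poisson intervals. Krt1, Krt10 and Krt2 are highest in cells with 20 or more Krtdap UMIs in all 3 libraries, and the young WT line for Krt1 lies above both adult lines in every group.

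Krt79, a type II keratin of the upper follicle and sebaceous duct, and Krt17, a type I keratin of follicles and of stressed epidermis, stood out in the Defb6/Cst6 gate. Krt79 was at 1705, 1315 and 919 CPM there, 27.3 to 30.0 times its level in the Col17a1 gate. Krt17 was at 1544, 945 and 579 CPM, 9.86 to 14.3 times. Both were concentrated in a subset, since 47.5%, 43.9% and 40.7% of cells in the gate had a Krt79 UMI and 39.8%, 40.9% and 35.6% a Krt17 UMI. At 3000 UMIs per cell these shares were 38.9%, 38.8% and 35.8% for Krt79 and 31.9%, 29.6% and 28.8% for Krt17, against at most 0.313% for Krt79 and 0.186% for Krt17 in Prox1 or Ptprc cells, whose median depths were 5084 to 10273 UMIs. The Defb6 and Cst6 sides of the gate differed in Krt79 level and in Krt2, and shared 39, 71 and 66 cells. Cells with at least 3 UMIs of Defb6 (65, 169 and 153 cells) held Krt79 at 3934, 2496 and 2075 CPM and Krt2 at 4.1, 787 and 1778 CPM. Cells with at least 3 of Cst6 (89, 150 and 184) held Krt79 at 1894, 1655 and 875 CPM and Krt2 at 8048, 6933 and 8987 CPM. Cells with at least 3 of both had the highest Krt79 level of these sets, at 6239, 4228 and 3066 CPM. They held 3425 of the 3840, 5264 of the 6229 and 2956 of the 4055 Krt79 UMIs of the Defb6 side. Of the Cst6 side they held nearly all: 3425 of 3433, 5264 of 5264 and 2956 of 2985. Krt2 in Defb6 cells came from few of them, with a UMI in 4, 20 and 10 cells.

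The remaining members above background were of lower level. Krt80, a type II keratin of differentiating epithelia, was at 148, 117 and 118 CPM in the Col17a1 gate and 264, 252 and 247 CPM in the Defb6/Cst6 gate, 1.78 to 2.15 times as much. Its gene (chromosome 15, 101347444 to 101370162) overlaps Gm35853 and Mir1941 on the other strand, as Krt10 does Gm11940, Krt5 Gm44323, Krt32 Gm11571, Krt12 A830036E02Rik, Krt7 Gm671 and Krt8 Gm36026. No source used here states whether counting used strand, and the part of such partners in the keratin counts was not tested. Krt77, a type II keratin of differentiated cells, was at 30 CPM or more in all 3 libraries in the Defb6/Cst6 gate alone, at 104.5, 81.7 and 114 CPM. Krt24, a type I keratin of the upper layers, was at 30.2, 67.4 and 107 CPM in the Krtdap gate and 98.4, 115 and 215 CPM in the Defb6/Cst6 gate. Krt7, a simple epithelial keratin, reached 9.58, 16.0 and 7.87 CPM in the Defb6/Cst6 gate. Krt12, the corneal keratin, stayed between 0 and 3.48 CPM in every gate.

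Hair and inner root sheath keratins were nearly absent apart from single cells. Krt32, a keratin of the hair cuticle, was the main exception, at 7.13 to 10.4 CPM in the Col17a1 gate and up to 30.8 CPM in the Defb6/Cst6 gate of adult WT. The other 12 hair shaft members stayed at or under 0.793 CPM in keratinocytes. Krt27, of the inner root sheath, was at most 3.70 CPM in any keratinocyte gate. Its level in cycling cells was 2.09 to 3.77 times that in the Col17a1 gate over the 3 libraries. Of 158 Krt71 UMIs in adult Lang-DTA cycling cells, all 158 came from 1 cell, which also held 257 of the 263 Krt25 UMIs and 20 Krt28 UMIs, all 3 genes of the inner root sheath. That cell carried 18 Xist UMIs and 19 UMIs of the Y-linked genes Ddx3y, Eif2s3y, Kdm5d and Uty. In adult WT 1 cell of the Col17a1 and Krtdap gates held all 63 UMIs of Krt73, another root sheath keratin. Of the simple epithelial and Merkel cell keratins, Krt8, Krt18, Krt19 and Krt20 stayed at or under 0.675 CPM in every gate, below Krt7.

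The age contrast set adult WT against young WT. A keratin was measured where it had at least 50 UMIs over both libraries and 30 CPM in the higher one, and it is called higher or lower where the ratio was at least 1.5-fold and its 95% interval lay beyond 1. Of 9 keratins measured in the Col17a1 gate, 1 was past this line, Krt1 (all genes measured: 6.11%). In the Krtdap gate 3 of 11 were past it (6.49%), in the Defb6/Cst6 gate 4 of 13 (9.58%) and in the cycling gate 3 of 9 (8.83%). By direction, the shares of all genes past the line in these 4 gates were 4.26%, 5.02%, 5.32% and 4.78% higher and 1.85%, 1.47%, 4.25% and 4.05% lower in adult WT. The keratins' median log2 ratios were -0.42, -0.28, -0.36 and -0.36, beside -0.07, -0.05, -0.07 and -0.08 over all genes measured. Median-of-ratios scaling differed from CPM by -0.09, -0.07, -0.10 and -0.10 (log2) and left all 4 counts as they were.

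Krt1 (chromosome 15, 101845426 to 101850794), the type II partner of Krt10, was lower in adult WT in 3 of the 4 gates. It was at 587 CPM in young WT, 297 in adult WT and 342 in adult Lang-DTA in the Col17a1 gate, a log2 ratio of -0.98 (95% interval -1.02 to -0.95) for age. In the Krtdap gate it was at 1320, 723 and 899 CPM (age log2 ratio -0.87, -0.90 to -0.83), and in the Defb6/Cst6 gate at 1927, 1038 and 881 CPM (-0.89, -0.95 to -0.83). Both adult libraries thus lay below young WT in all 3 gates. The ratio held in cells of each sex, called by Xist and Y-linked UMIs: in the Col17a1 gate it was -0.93 in male-called and -1.24 in female-called cells. It was also seen in cells with 0 Krtdap UMIs, where Krt1 was at 165, 54.3 and 80.4 CPM. Its partner Krt10 had age log2 ratios of -0.49, -0.46 and -0.53 in the same gates and Krt2 of -0.38, -0.35 and -0.36, which did not reach 1.5-fold.

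Krt15 was lower in cycling cells of adult WT, at 5385 CPM in young WT, 2991 in adult WT and 2920 in adult Lang-DTA (age log2 ratio -0.85, -0.88 to -0.82). In male-called cells it was -0.64 and in female-called cells -1.28. Krt14, in the same cells, was at 7378 and 7134 CPM in young and adult WT, a log2 ratio of -0.05. Krt17 in the Defb6/Cst6 gate was lower in adult WT (1544 to 945 CPM, -0.71, -0.77 to -0.64), but without the 3 cells of each library with the most Krt17 the log2 ratio was -0.41. In the cells that met no other keratinocyte gate, 18 in each of these libraries, it was 2.25.

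Krt24 was higher in the adult WT Krtdap gate (30.2 to 67.4 CPM, log2 ratio 1.16, 0.98 to 1.35), in male-called (0.85) and female-called cells (1.60) alike. A UMI was found in 39 of 509 young WT cells and 157 of 1007 adult WT cells, or 2.97% and 8.14% at 3000 UMIs per cell, against at most 0.0522% in Prox1 or Ptprc cells. Granular markers (Lor, Flg, Cdsn, Lce1c, Flg2, Ivl) summed to 19.6 CPM in the young WT Krtdap gate and to 330.2 CPM in that of adult WT, and their part in the Krt24 difference was not tested. Krt32 was higher in the Defb6/Cst6 gate (10.0 to 30.8 CPM, 1.62, 0.98 to 2.32), on 23 and 146 UMIs, and without the 3 highest cells per library it was under the floor in both.

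Krt16, a type I keratin of wounded and stressed epidermis, was higher in adult WT but came from few cells. In the Defb6/Cst6 gate it was at 9.58 CPM in young WT, 177 in adult WT and 128 in adult Lang-DTA. Of 839 UMIs in adult WT, 481 lay in 1 cell and 717 in 3 cells, and of 567 in adult Lang-DTA 537 lay in 1 cell. The leading cell of each adult library also met the Krtdap gate, where Krt16 was at 7.59, 51.1 and 58.4 CPM. Without the 3 highest cells per library the Krtdap-gate values were 4.56 CPM in young WT and 9.93 CPM in adult WT, under the floor. The leading cell of adult Lang-DTA carried both Xist (9 UMIs) and Y-linked RNA (11 UMIs).

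Among cycling cells Krt10 was higher (388 to 684 CPM, 0.82, 0.73 to 0.90) and Krt79 lower (52.8 to 24.8 CPM, -1.09, -1.41 to -0.77) in adult WT, and both rested on few cells. Without the 3 highest cells per library the log2 ratios were 0.09 and -0.01. Krt79 was higher in adult WT among female-called cells (1.62) and lower among male-called cells (-2.29).

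**Figure D4:**
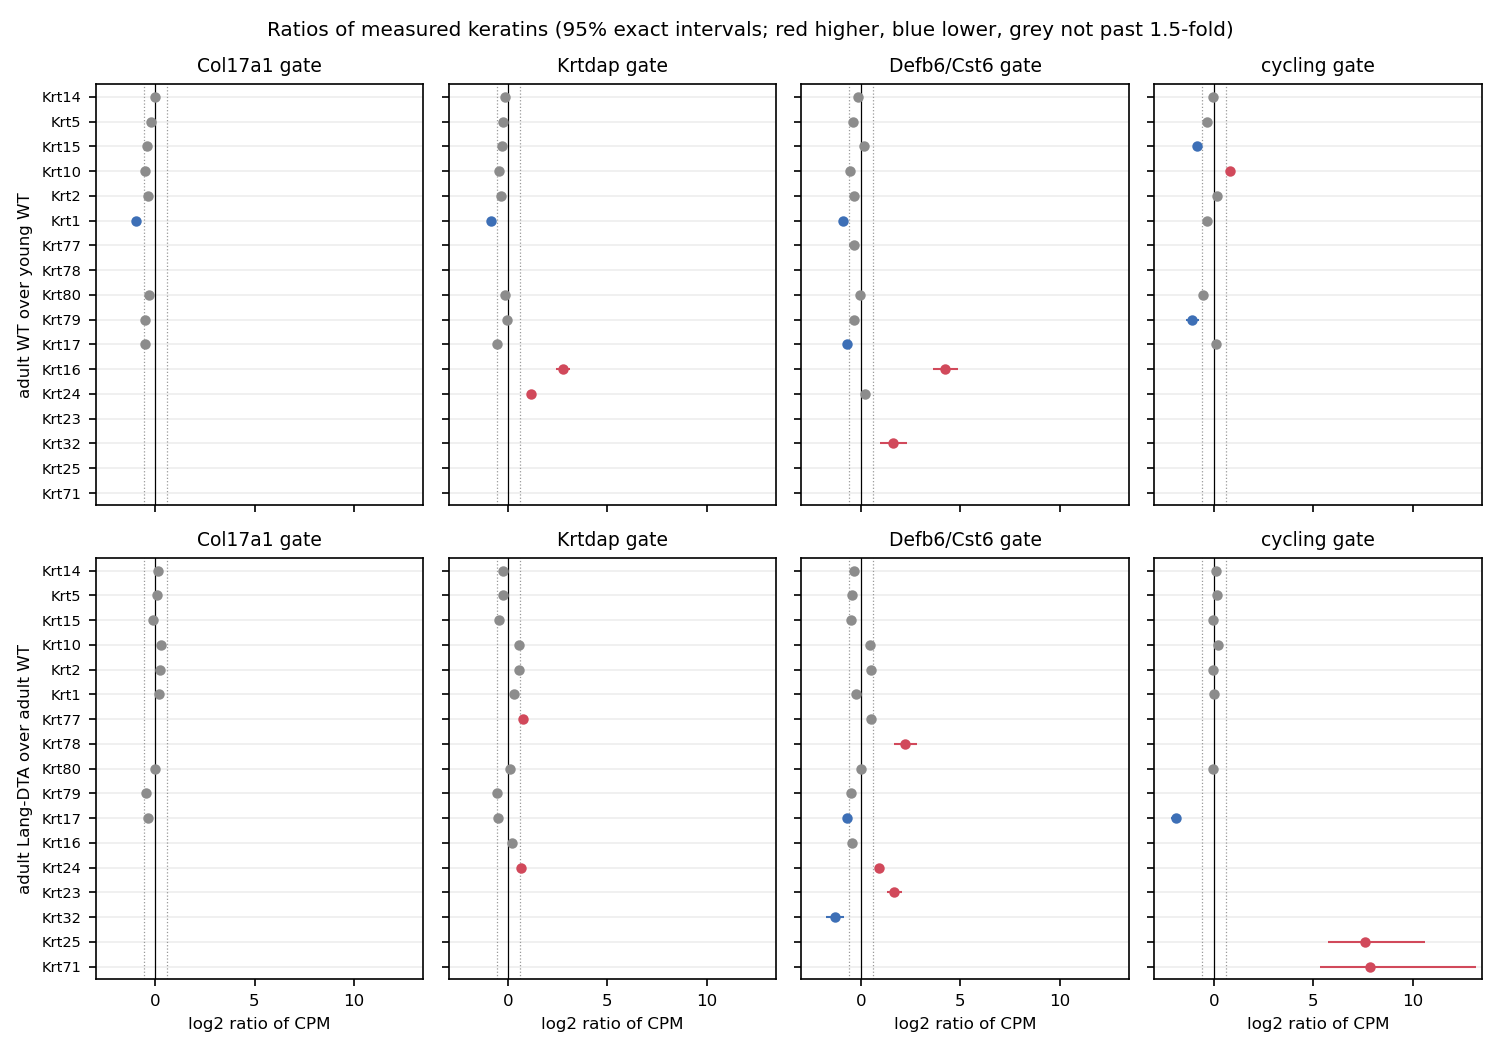
Log2 ratio of CPM with exact 95% intervals for each measured keratin, adult WT over young WT (top) and adult Lang-DTA over adult WT (bottom), by gate; dotted lines mark 1.5-fold, and an empty row was not measured. Krt1 lies left of the line in 3 gates for age, and no keratin passes it in the Col17a1 gate for genotype.

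The genotype contrast set adult Lang-DTA against adult WT, both of 8 weeks. In the Col17a1 gate 0 of 9 measured keratins passed 1.5-fold (all genes: 0.459%), with log2 ratios from -0.45 (Krt79) to 0.30 (Krt10). In the Krtdap gate 2 of 12 passed (2.19%), in the Defb6/Cst6 gate 5 of 15 (4.62%) and in the cycling gate 3 of 10 (1.91%). By direction, the shares of all genes in these 4 gates were 0.184%, 0.927%, 3.11% and 0.962% higher and 0.275%, 1.26%, 1.51% and 0.945% lower in adult Lang-DTA. The keratins' median log2 ratios were 0.089, 0.15, -0.24 and 0.055, beside -0.023, -0.041, -0.032 and -0.0054 over all genes measured. The 3 in cycling cells include Krt25 and Krt71, which are the single cell described above.

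Krt78 (chromosome 15, 101946001 to 101954287), a type II keratin of differentiating epithelia, was higher in the Defb6/Cst6 gate of adult Lang-DTA. It was at 6.10 CPM in young WT, 6.96 in adult WT and 32.2 in adult Lang-DTA (genotype log2 ratio 2.21, 1.65 to 2.80), with a UMI in 7, 14 and 41 cells, and had no UMI in Prox1 or Ptprc cells. The ratio was 2.73 in male-called and 1.93 in female-called cells, and it also passed the line among cells with at least 3 UMIs of Cst6 (10.4 to 41.6 CPM). By Defb6 alone (0.40 to 6.65 CPM) and thinned to 3000 UMIs (3.85 to 17.2 CPM) both levels were under the floor. Without the 3 highest cells per library the log2 ratio was 2.40, with 22.3 CPM in adult Lang-DTA, under the floor of 30. In the Krtdap gate Krt78 was at 1.52, 2.98 and 12.1 CPM, too low to be measured.

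Krt24 (chromosome 11, 99279959 to 99285262) was higher in the Defb6/Cst6 gate (115 to 215 CPM, 0.90, 0.75 to 1.06) and in the Krtdap gate (67.4 to 107 CPM, 0.66, 0.55 to 0.77). In male-called cells the log2 ratios were 1.12 and 0.95. In female-called cells they were 0.23 and -0.16, and in cells chosen by Defb6 alone the first was 0.18, so neither call held there. Thinned to 3000 UMIs they were 0.90 and 0.46, so the Krtdap-gate call did not hold. Krt23 was higher in the Defb6/Cst6 gate (17.5 to 55.6 CPM, 1.67, 1.30 to 2.04), with 68 of 247 UMIs in 1 adult Lang-DTA cell and a UMI in 33 and 32 cells. Without the 3 highest cells per library its log2 ratio was 0.76 and both levels were under the floor, thinned to 3000 UMIs it was 0.056 (30.8 to 32.0 CPM), and by Defb6 alone it was -0.085. Krt77 was higher in the Krtdap gate (19.6 to 33.1 CPM, 0.75, 0.55 to 0.96), but 199 of 469 UMIs lay in 1 cell and without 3 cells per library the log2 ratio was -0.33.

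Krt10 and Krt2 lay just under the line in the Krtdap gate. Krt10 was at 7417 CPM in adult WT and 10915 in adult Lang-DTA (log2 ratio 0.56, 0.55 to 0.57) and Krt2 at 3580 and 5258 CPM (0.55, 0.54 to 0.57). Median-of-ratios scaling raised the count past 1.5-fold in this gate from 2 to 4. Granular markers summed there to 330.2 and 111.0 CPM in these libraries, and in the Defb6/Cst6 gate to 67.7 and 340.6 CPM. Median depth in the Krtdap gate was 16128 UMIs per cell in adult WT and 13963.5 in adult Lang-DTA. The part of granular cells and of depth in the keratin differences was not tested.

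Krt17 (chromosome 11, 100256217 to 100261029) was lower in adult Lang-DTA cycling cells, at 126 CPM in young WT, 133 in adult WT and 35.7 in adult Lang-DTA (genotype log2 ratio -1.90, -2.17 to -1.64). It was found in 40 of 173, 73 of 262 and 36 of 211 cells, and at 3000 UMIs per cell in 8.09%, 12.7% and 8.57%. In young WT 375 of the 476 Krt17 UMIs lay in 3 cells, against 324 of 767 in adult WT and 46 of 140 in adult Lang-DTA. The genotype ratio was -1.54 in male-called cells, -2.31 in female-called cells and -1.68 without the 3 highest cells per library. Fibroblast markers summed to 233, 242 and 757 CPM in these cells, and Krt17 was -1.50 where cells with markers of other cell types were left out. In the Defb6/Cst6 gate Krt17 was also lower (945 to 579 CPM, -0.71, -0.78 to -0.64), with -1.13 in male-called and -0.13 in female-called cells. Its call held by Cst6 alone (-1.06) and without the 3 highest cells per library (-0.76). It did not hold in female-called cells, thinned to 3000 UMIs (-0.42) or by Defb6 alone (-0.53). Krt32 was lower in the Defb6/Cst6 gate (30.8 to 12.6 CPM, -1.29, -1.76 to -0.84). But its levels were under the floor without the 3 highest cells per library, in female-called cells and in cells chosen by Cst6 alone. Of the 275 adult Lang-DTA cells in that gate 15 had under 3 UMIs of the desmosome genes Dsp and Perp together, against 2 of 118 in young WT and 1 of 264 in adult WT.

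**Figure D5:**
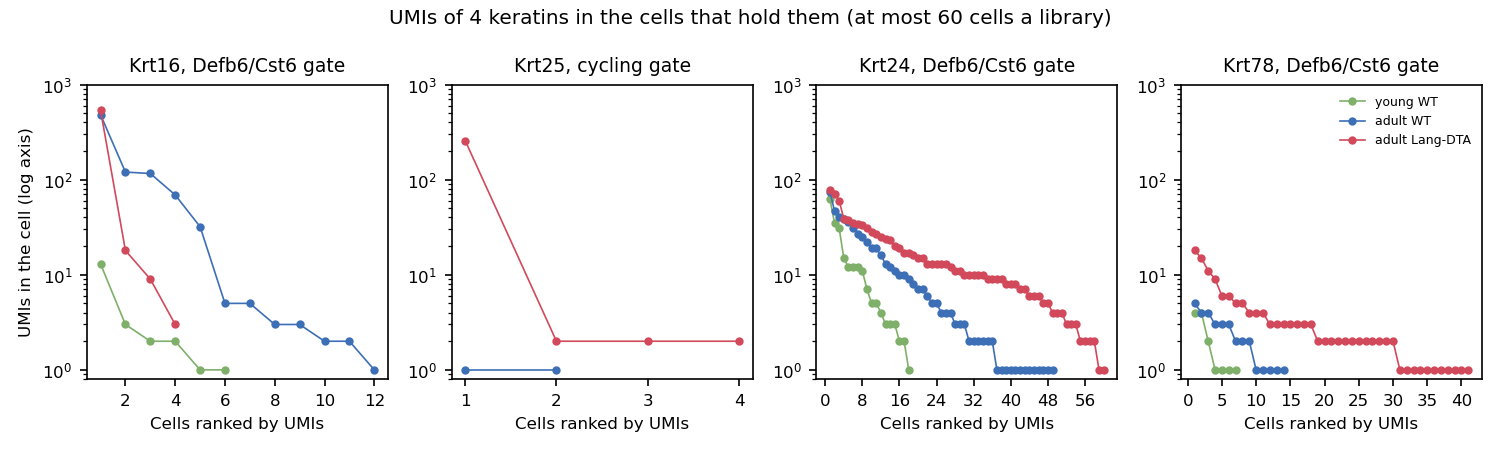
UMIs of Krt16, Krt24 and Krt78 in cells of the Defb6/Cst6 gate and of Krt25 in cycling cells, with cells ranked from the highest (log axis, at most 60 cells for each library). In adult Lang-DTA, Krt16 goes from 537 UMIs in the first cell to 3 in the fourth and Krt25 from 257 to 2 in the second, while Krt78 UMIs lie in 41 cells.

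Genes that work with keratins were taken from lists chosen by function. Of 13 desmosome genes 9 to 11 were measured in each gate, and none passed 1.5-fold for age in any gate. For genotype Dsc1, a desmosomal cadherin of upper layers, was higher in the Krtdap gate (51.4 to 80.8 CPM, log2 ratio 0.65), and Dsg3, a cadherin of lower layers, was lower in the Defb6/Cst6 gate (170 to 97.9 CPM, -0.80). All 7 hemidesmosome and cytolinker genes were measured: 0 passed for age in the Col17a1 and Krtdap gates, Plec was lower in the Defb6/Cst6 gate (-0.67), and Plec (-0.73), Dst (-0.70) and Ppl (-0.81), which tie keratin filaments to junctions, were lower in adult WT cycling cells. None of the 7 passed for genotype. In the Col17a1, Krtdap, Defb6/Cst6 and cycling gates in turn, 6.11%, 6.49%, 9.58% and 8.83% of all genes measured passed for age and 0.459%, 2.19%, 4.62% and 1.91% for genotype.

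Of 6 genes of keratin bundling and cornified matrix, none was measured for age. For genotype Flg2 (7.81 to 68.6 CPM) and Hrnr (10.8 to 137 CPM), of the filaggrin family, were higher in the Defb6/Cst6 gate of adult Lang-DTA. Flg, which gives filaggrin, had no UMI there in adult WT and was at 36.4 CPM in adult Lang-DTA. Hrnr was also higher in the Krtdap gate (7.81 to 43.4 CPM, log2 ratio 2.47). Among keratins with a letter in the symbol, Krt6a, a partner of Krt16, was measured in the Defb6/Cst6 gate alone, where it was lower in adult Lang-DTA (36.7 to 7.20 CPM, -2.35). Vim, the intermediate filament gene of mesenchymal and endothelial cells, was higher in adult Lang-DTA in the Defb6/Cst6 gate (57.8 to 229 CPM) and in cycling cells (65.0 to 107 CPM).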

How the data were processed

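Single-cell RNA was measured in 3 libraries (10x Genomics 3′ v4, per the labels' protocols). The authors deposited counts of UMIs per gene and cell barcode, without normalization, made with Cell Ranger 8.01 on GRCm38 per the submitters' processing notes and 8.0.1 per the file headers. For the annotation release, intron counting, strand and correction for ambient RNA, the answer is not given in the sources. An imiquimod condition named in the protocol is not analysed here. The libraries held 137441575, 128595813 and 124590777 UMIs in 12864, 13600 and 13540 barcodes, of which 34 to 47 were shared by sequence between a pair of libraries.

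Barcodes with at least 500 genes, 1000 UMIs and at most 10% mitochondrial UMIs were kept (12399, 12621 and 12941). No doublet caller was run; the 151, 174 and 214 barcodes that met a keratinocyte gate and a background gate were left out. UMIs were summed per gate and library, with exact Poisson, binomial and conditional 95% intervals. With 1 library per condition no p-value was computed. The calling step was checked on simulated counts. These held counting error only, so the check does not cover spread between cells or between pools. Python 3.11.15, numpy 2.4.6, scipy 1.17.1, pandas 2.3.3 and matplotlib 3.10.9 were used, and positions came from GENCODE M21 by gene ID for all 49 members.

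Named were the 8 most abundant keratins of each gate, every keratin past 1.5-fold, and every keratin at 30 CPM or more and 5 times background in all 3 libraries; others named were chosen after their values were seen. Members, gates and lists were chosen with earlier results of these data known. Of the alternatives, 12 were listed at the start and 4 were chosen after seeing the data: leaving out the 3 cells with most UMIs of a keratin, choosing by Defb6 or by Cst6 alone, and keeping cells with at least 3 UMIs of Dsp plus Perp, under 3 of Pecam1 plus Cdh5 and under 5 of Dcn, Col1a2 plus Pdgfra. Some results for the linked gene lists are not reported here.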

Additional observations from a re-analysis of the deposited data

Results flagged for a closer look

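Krt83, a hair shaft keratin, gave more UMIs in the Ptprc cells used as background than in any keratinocyte gate: 3.90 CPM in young WT, 7.84 in adult WT and 4.80 in adult Lang-DTA, against at most 0.225 CPM in keratinocytes. UMIs were spread over 115 of 3161, 159 of 2853 and 56 of 2088 Ptprc cells. In Ptprc cells with at least 1 UMI of Cd3e, a T cell receptor subunit, Krt83 was at 7.03, 8.99 and 5.21 CPM, and in those with at least 5 of Lyz2, a myeloid gene, it was at 0.0964, 0 and 0.947 CPM. Krt8, a simple epithelial keratin, was at 2.93 CPM in Prox1 cells of adult Lang-DTA, above every keratinocyte gate, and at 0.0855 and 0 CPM in those of young WT and adult WT. Its 66 UMIs lay in 13 of 2226 cells, and 61 of them in cells with at least 1 UMI of Gdf15. No cause was tested for either.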

How the results depend on the processing

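No paired analysis was possible because each condition has 1 library. Over the alternatives, Krt1 stayed lower in adult WT in the Col17a1 gate (log2 ratio -1.50 to -0.89) and the Krtdap gate (-0.72 at its smallest). It also stayed lower in the Defb6/Cst6 gate (-4.91 to -0.60). The -4.91 rests on 24 and 1 UMIs in the 18 cells of each library that met no other keratinocyte gate, under the floor. Krt17 stayed lower in adult Lang-DTA cycling cells (-2.31 to -1.50). Counts of keratins past 1.5-fold, for age in the Col17a1, Krtdap, Defb6/Cst6 and cycling gates (1, 3, 4 and 3) and for genotype (0, 2, 5 and 3), moved by over 1.5 times as follows, with the gate named. Without a floor: age Col17a1 12, Krtdap 9, cycling 6; genotype Col17a1 9, Krtdap 11, cycling 10. At 200 UMIs and 100 CPM: age Krtdap 1; genotype Krtdap 1, Defb6/Cst6 2, cycling 1. Male-called cells: age Col17a1 2, cycling 5; genotype Col17a1 2, Krtdap 4, Defb6/Cst6 11. Female-called cells: age Col17a1 4, Krtdap 5, cycling 5; genotype Col17a1 1, Krtdap 1, Defb6/Cst6 3. Thinned to 3000 UMIs: age Col17a1 2; genotype Col17a1 1, Krtdap 0, Defb6/Cst6 3, cycling 1. Doubled minimums: age Col17a1 2, Defb6/Cst6 9; genotype Defb6/Cst6 9. Gates per 10000 UMIs: age Defb6/Cst6 8; genotype Defb6/Cst6 9. Cells in 1 gate only: genotype Col17a1 1, Krtdap 6. Barcodes of both kinds kept: age Defb6/Cst6 2, cycling 1. Median-of-ratios scaling: genotype Krtdap 4. Without the 3 highest cells: age Defb6/Cst6 2; genotype Defb6/Cst6 2, cycling 1. Defb6 alone: age Defb6/Cst6 8. Without cells carrying markers of other types: genotype Col17a1 1, Krtdap 4. Direction reversed for Krt17 (age, Defb6/Cst6) in cells of 1 gate (2.25); for Krt79 (age, cycling) in cells of 1 gate (2.38) and female-called cells (1.62); for Krt10 (age, cycling) with gates per 10000 UMIs (-0.28) and doubled minimums (-0.32); for Krt24 (genotype, Krtdap) in cells of 1 gate (-0.21) and female-called cells (-0.16); for Krt77 in female-called cells (-0.15) and without 3 cells (-0.33); and for Krt23 in cells of 1 gate (-4.04) and by Defb6 alone (-0.085). The cause was not tested, except that a changed floor or cell set changes how many keratins are measured. Leaving out 1 library leaves no contrast.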

Other observations

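Krt80 was the keratin with the most UMIs in Ptprc cells of young WT. In Ptprc cells with at least 5 UMIs of Lyz2 it was at 51.2, 28.1 and 28.7 CPM (same order of libraries), with a UMI in 41.0% (95% interval 37.4% to 44.6%), 31.2% and 21.4% of 749, 199 and 299 cells. In Ptprc cells with at least 1 UMI of Cd3e it was at 1.76, 1.01 and 2.41 CPM. Krt14, for comparison, was at 5.11, 7.57 and 5.37 CPM in the Lyz2 cells. Median depth was 13029, 11372 and 8943 UMIs in the Lyz2 cells and 9131, 7055 and 5790 in the Cd3e cells. The part of the genes that overlap Krt80 in these counts was not tested.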
